A study of Rattus norvegicus with 4 samples.

Results

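Elastic fibre and microfibril genes were followed in rat mesenchymal stem cells from femurs, using the 10 genes Fbn1, Fbn2, Mfap2, Mfap5, Mfap4, Eln, Fbln5, Fbln2, Fbln1 and Emilin1, found by symbol in a count table of 34034 genes. All 10 were listed, and 9 of them had at least 40 counts summed over the 4 libraries, the level at which 12228 of all genes were compared; Fbn2 had fewer. The 4 libraries were senescent cells given trichostatin A and phenamil (TSA + phenamil), senescent cells given trichostatin A alone (TSA), senescent cells with vehicle (senescent control) and young cells with vehicle (young control). All were kept in osteogenic induction medium, treatment lasted 24 h, RNA was taken at day 1, and 1 library stood for each condition. The sample titles name no batch, and with 1 library each, batch and condition cannot be told apart. Trichostatin A inhibits histone deacetylases, and phenamil is an amiloride derivative; no library had phenamil alone. Phenamil is the name in the sample labels and is kept here, although the series' design text has benzyl ether in its place. The titles of the treated samples read "TSA extracs treat" and "TSA and phenamil extracs treat", which may mean extracts. Whether these differed from the vehicle in more than the compounds cannot be told from the titles. The sources used here do not give doses, the age and number of animals, or how the cells became senescent.

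Elastic fibres have a core of crosslinked elastin laid down on a scaffold of microfibrils. Microfibrils are polymers of fibrillins, to which the microfibril-associated glycoproteins of Mfap2 and Mfap5 bind. Fibulins and EMILIN-1 join elastin, microfibrils and cell surfaces, and lysyl oxidases crosslink the elastin. Microfibrils also form without elastin, as in the matrix around bone, and they hold latent TGF-beta and BMPs; mutations of fibrillin genes in humans alter skeletal growth.

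Values are levels in CPM, the usual depth-scaled count, here on library sizes adjusted by TMM (trimmed mean of M-values), or ratios between 2 libraries, each with its 95% interval in parentheses. The kit reads transcript ends, so CPM was not divided by length and levels are compared between libraries, not between genes. The intervals cover counting error only. Without replicates no p-value can be given, and each ratio describes a pair of libraries, not the conditions. A gene was called higher or lower when its whole interval lay beyond 1.2-fold. Comparisons that share a library share its error, so their ratios are given side by side. In bulk RNA, fewer expressing cells and less RNA per cell cannot be told apart.

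The libraries held 9873894 to 11024227 counts, the TSA library being the smallest. All 6 stromal markers (Thy1, Nt5e, Eng, Cd44, Pdgfrb and Col1a1) were detected in every library, with Thy1 at 753 to 803 CPM, although Eng had only 18 to 23 counts. Haematopoietic markers summed to at most 1.33 CPM and endothelial markers to at most 0.381 CPM. Of the osteoblast markers Sp7, Ibsp, Bglap and Dmp1, none passed 2 counts in any library, so mature osteoblast genes were at or near 0 in these cells. The chondrocyte markers Acan, Col2a1 and Comp, by contrast, summed to 423 to 487 CPM, mostly from Acan at 320 to 379 CPM. Adipocyte markers summed to at most 0.857 CPM.

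Fbn1, Fbln5 and Fbln2 carried the pattern of the group. Each was lowest with TSA alone, and each was higher in the TSA + phenamil library than in the TSA library at 1.60, 1.63 and 1.81 times its level. Fbn1 and Fbln5 were also lower in the senescent than in the young control, at 0.708 and 0.759 times its level, whereas Fbln2 was at 0.937. Elastin itself (Eln) and Mfap5 showed no difference beyond counting error in any of the 6 pairs of libraries. Emilin1 was not called in any of the 6. Together the 10 genes took 0.167% (0.165 to 0.170) of counts in the TSA + phenamil library, 0.112% (0.110 to 0.114) in the TSA library, 0.150% (0.148 to 0.153) in the senescent control and 0.187% (0.184 to 0.190) in the young control. Across libraries Fbn1 made up 38.3% to 44.4% of this sum and Fbln2 29.5% to 36.1%. The sum therefore mainly repeats the result of Fbn1 and Fbln2.

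**Figure D1:**
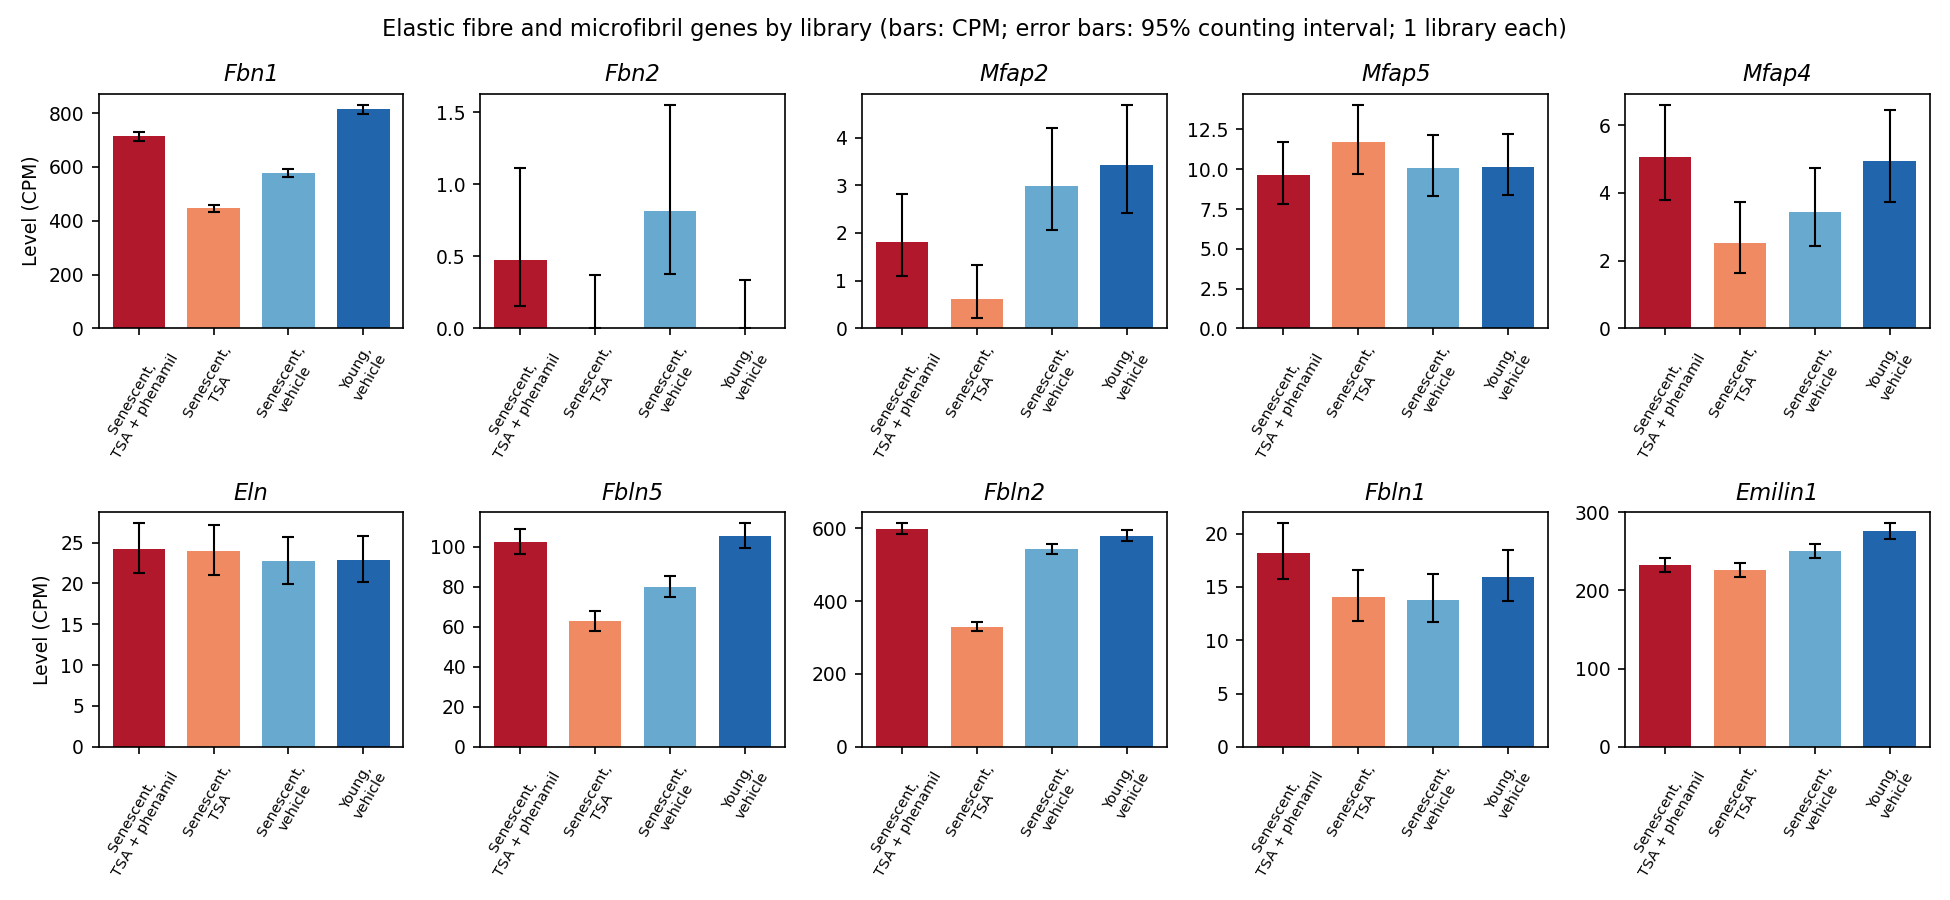
Level of each of the 10 genes in CPM (vertical axis, from 0) in the 4 libraries; bars are 1 library each and error bars are 95% counting intervals. Fbn1, Fbln5 and Fbln2 are lowest in the TSA library, at 446, 62.8 and 330.0 CPM, while Eln lies between 22.7 and 24.2 CPM throughout.

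Promoter sequences are shown for these 3 genes, and for Mfap5 as one that showed no difference beyond counting error. RefSeq promoter windows of the build GRCr8, 250 bases before to 50 after the annotated start, were found for 6 of the 10 genes. In the Fbn1 window the 50 bases after that start open with atg, the letters of a start codon. The annotated start of Fbn1 may therefore be that of translation. Its window, GC content, CpG number and motif matches may then not describe its promoter. Capitals mark the GC box GGGCGG on either strand, the letters bound by Sp1-type factors. The windows, in the gene's own direction, are chr3:133203341-133203640 on the minus strand for Fbn1, chr6:126742657-126742956 on the minus strand for Fbln5, chr4:125261409-125261708 on the plus strand for Fbln2 and chr4:157399669-157399968 on the plus strand for Mfap5.
Fbn1: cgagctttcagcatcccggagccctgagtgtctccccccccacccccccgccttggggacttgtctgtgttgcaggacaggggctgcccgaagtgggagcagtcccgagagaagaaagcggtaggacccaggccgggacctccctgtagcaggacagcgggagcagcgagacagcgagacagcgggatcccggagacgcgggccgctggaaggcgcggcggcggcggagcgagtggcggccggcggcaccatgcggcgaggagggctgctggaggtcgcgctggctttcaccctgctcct
Fbln5: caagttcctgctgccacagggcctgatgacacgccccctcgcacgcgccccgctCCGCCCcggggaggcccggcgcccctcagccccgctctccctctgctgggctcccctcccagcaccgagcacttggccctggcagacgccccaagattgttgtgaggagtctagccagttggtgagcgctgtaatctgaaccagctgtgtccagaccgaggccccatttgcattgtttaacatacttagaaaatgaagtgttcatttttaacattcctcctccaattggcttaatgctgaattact
Fbln2: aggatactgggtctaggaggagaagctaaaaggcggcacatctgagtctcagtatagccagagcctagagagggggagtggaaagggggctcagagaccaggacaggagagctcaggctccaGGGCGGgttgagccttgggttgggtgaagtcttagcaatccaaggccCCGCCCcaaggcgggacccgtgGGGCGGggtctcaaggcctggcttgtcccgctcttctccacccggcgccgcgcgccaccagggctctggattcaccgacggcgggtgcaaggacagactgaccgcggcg
Mfap5: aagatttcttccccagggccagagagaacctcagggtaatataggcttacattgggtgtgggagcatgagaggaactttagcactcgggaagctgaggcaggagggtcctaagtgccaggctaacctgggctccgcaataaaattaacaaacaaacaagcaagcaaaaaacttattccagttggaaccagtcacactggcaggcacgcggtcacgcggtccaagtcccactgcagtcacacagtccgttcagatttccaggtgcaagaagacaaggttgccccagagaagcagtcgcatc
Fbln2 held 3 GC boxes and Fbln5 held 1, while the Fbn1 and Mfap5 windows held 0; of 33469 rat windows of this length, 33.1% held at least 1. The GC content was 70.7% for Fbn1, 58.3% for Fbln5, 64.7% for Fbln2 and 51.7% for Mfap5, against a median of 51.7% over all windows, and CpG dinucleotides numbered 28, 14, 18 and 8 in the same order against a median of 7. Other motifs were searched on both strands. CCAAT had 2 matches in Fbln5 and 1 in Mfap5, and 37.5% of all windows held it. The 2 in Fbln5 overlap, as the stretch ccaattgg read on both strands, and lie after the annotated start. CAGAC had 1 match in Fbn1, 2 in Fbln5 and 1 in Fbln2 but none in Mfap5, and 50.1% of windows held it. CAGCTG had 1 match in Fbln5 (15.1% of windows), while TATAAA (14.2%) and TGANTCA (7.33%) matched in none of these 4 windows. In the windows found but not shown, Fbn2 held 2 CAGAC, and Mfap2 held 1 CAGAC, 1 GC box and 1 CAGCTG.

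Among the fibrillins, Fbn1 encodes fibrillin-1, the main building block of microfibrils in postnatal tissue. Its level was 715 CPM (698 to 731) in the TSA + phenamil library, 446 CPM (433 to 459) in the TSA library, 576 CPM (562 to 591) in the senescent control and 815 CPM (798 to 832) in the young control. All neighbours in that order of levels lay apart beyond counting error, with the young control highest and TSA lowest. The ratio was 0.774 (0.744 to 0.804) for TSA over senescent control, 1.24 (1.1987 to 1.28) for TSA + phenamil over senescent control and 0.547 (0.528 to 0.567) for TSA over young control. The TSA + phenamil library remained at 0.877 (0.850 to 0.904) of the young control. Fbn2, the fibrillin best known from embryonic tissue, had 5 counts with TSA + phenamil, 0 with TSA, 9 in the senescent control and 0 in the young control. A count of 0 allows up to 3 counts, 0.303 CPM in the TSA library and 0.270 CPM in the young control. From these counts the interval of the ratio had a lower end of 1.99 for senescent over young control and an upper end of 0.564 for TSA over senescent control, and no fold is given.

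The microfibril-associated genes were less abundant and did not share one pattern. Mfap2 encodes MAGP-1, which binds fibrillin and TGF-beta family ligands. Its counts were 19 with TSA + phenamil, 6 with TSA, 33 in the senescent control and 38 in the young control. TSA was at 0.215 (0.0693 to 0.489) of the senescent control and at 0.189 (0.0613 to 0.423) of the young control, the lowest ratios of any member with enough counts, though from 6 counts, and the deposited log2 values gave log2 ratios of -1.32 and -1.46 in these pairs in place of -2.22 and -2.41. TSA + phenamil over TSA was 2.84 (1.15 to 9.13), and TSA + phenamil over young control was 0.536 (0.288 to 0.942). In the reference annotation Mfap2 overlaps Atp13a2, which had 259 counts in all, and the sources used here do not say whether counting used strand, so Mfap2 is uncertain.

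Mfap5 encodes MAGP-2, a fibrillin-binding glycoprotein that can also bind Notch ligands. It lay at 9.62 CPM (7.84 to 11.7) with TSA + phenamil, 11.7 CPM (9.69 to 14.1) with TSA, 10.1 CPM (8.29 to 12.1) in the senescent control and 10.2 CPM (8.37 to 12.2) in the young control. These levels overlap throughout, and the ratio farthest from no change was 0.822 (0.622 to 1.08), for TSA + phenamil over TSA. Mfap4, whose product has a fibrinogen-like domain and binds elastin and collagen, had 53, 25, 38 and 55 counts in the same order of libraries. TSA + phenamil over TSA was 1.98 (1.22 to 3.36), a call from few counts that was lost on scaling by total counts. TSA over young control was 0.515 (0.305 to 0.834), short of a call, though it became one under each of the 3 other scalings tried. The senescent control was at 0.7001 (0.449 to 1.07) of the young control, within counting error.

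Eln encodes tropoelastin, the monomer of the elastic core. Its level was 24.2 CPM (21.3 to 27.4) with TSA + phenamil, 23.9 CPM (21.0 to 27.2) with TSA, 22.7 CPM (19.97 to 25.7) in the senescent control and 22.8 CPM (20.1 to 25.8) in the young control. The 4 intervals overlap, and the ratio of TSA + phenamil over TSA was 1.01 (0.843 to 1.21). At this depth, differences in Eln smaller than about the width of those intervals were not detectable.

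Fbln5 encodes fibulin-5, which binds tropoelastin, integrins and lysyl oxidase-like 1 and is needed for elastic fibre formation in mice. It was at 103 CPM (96.5 to 109) with TSA + phenamil, 62.8 CPM (57.9 to 67.9) with TSA, 80.1 CPM (74.9 to 85.6) in the senescent control and 106 CPM (99.7 to 112) in the young control. The TSA + phenamil library and the young control did not differ beyond counting error, at 0.970 (0.892 to 1.05), and both lay above the senescent control, with TSA lowest. The ratio for TSA over senescent control was 0.783 (0.705 to 0.869), which excluded no change but not 1.2-fold.

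Fbln2 encodes fibulin-2, a larger fibulin that binds fibrillin, fibronectin and basement membrane proteins. It lay at 599 CPM (584 to 614) with TSA + phenamil, 330.0 CPM (319 to 342) with TSA, 543 CPM (529 to 557) in the senescent control and 580 CPM (566 to 594) in the young control. Here the TSA library stood well below the other 3, which were close to each other. TSA over senescent control was 0.608 (0.582 to 0.634), and among 5270 genes with at least 1000 counts in all only 2 had a smaller ratio in that pair. TSA + phenamil over senescent control was 1.10 (1.06 to 1.14), and over the young control 1.03 (0.997 to 1.07).

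Fbln1 encodes fibulin-1, found in elastic fibres and basement membranes. Its levels were 18.2 CPM (15.7 to 21.0) with TSA + phenamil, 14.05 CPM (11.8 to 16.6) with TSA, 13.8 CPM (11.7 to 16.2) in the senescent control and 15.9 CPM (13.7 to 18.4) in the young control. Neighbouring levels overlapped, while TSA + phenamil was at 1.32 (1.06 to 1.64) of the senescent control and 1.29 (1.04 to 1.62) of TSA, neither of them a call. Emilin1 encodes EMILIN-1, found between the elastin core and its microfibrils, which in mice limits TGF-beta processing. Its levels were 232 CPM (223 to 242) with TSA + phenamil, 226 CPM (217 to 236) with TSA, 250.3 CPM (241 to 260) in the senescent control and 276 CPM (266 to 286) in the young control. It was highest in the young control, and unlike Fbn1 the TSA + phenamil and TSA libraries overlapped, with a ratio of 1.03 (0.970 to 1.09).

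**Figure D2:**
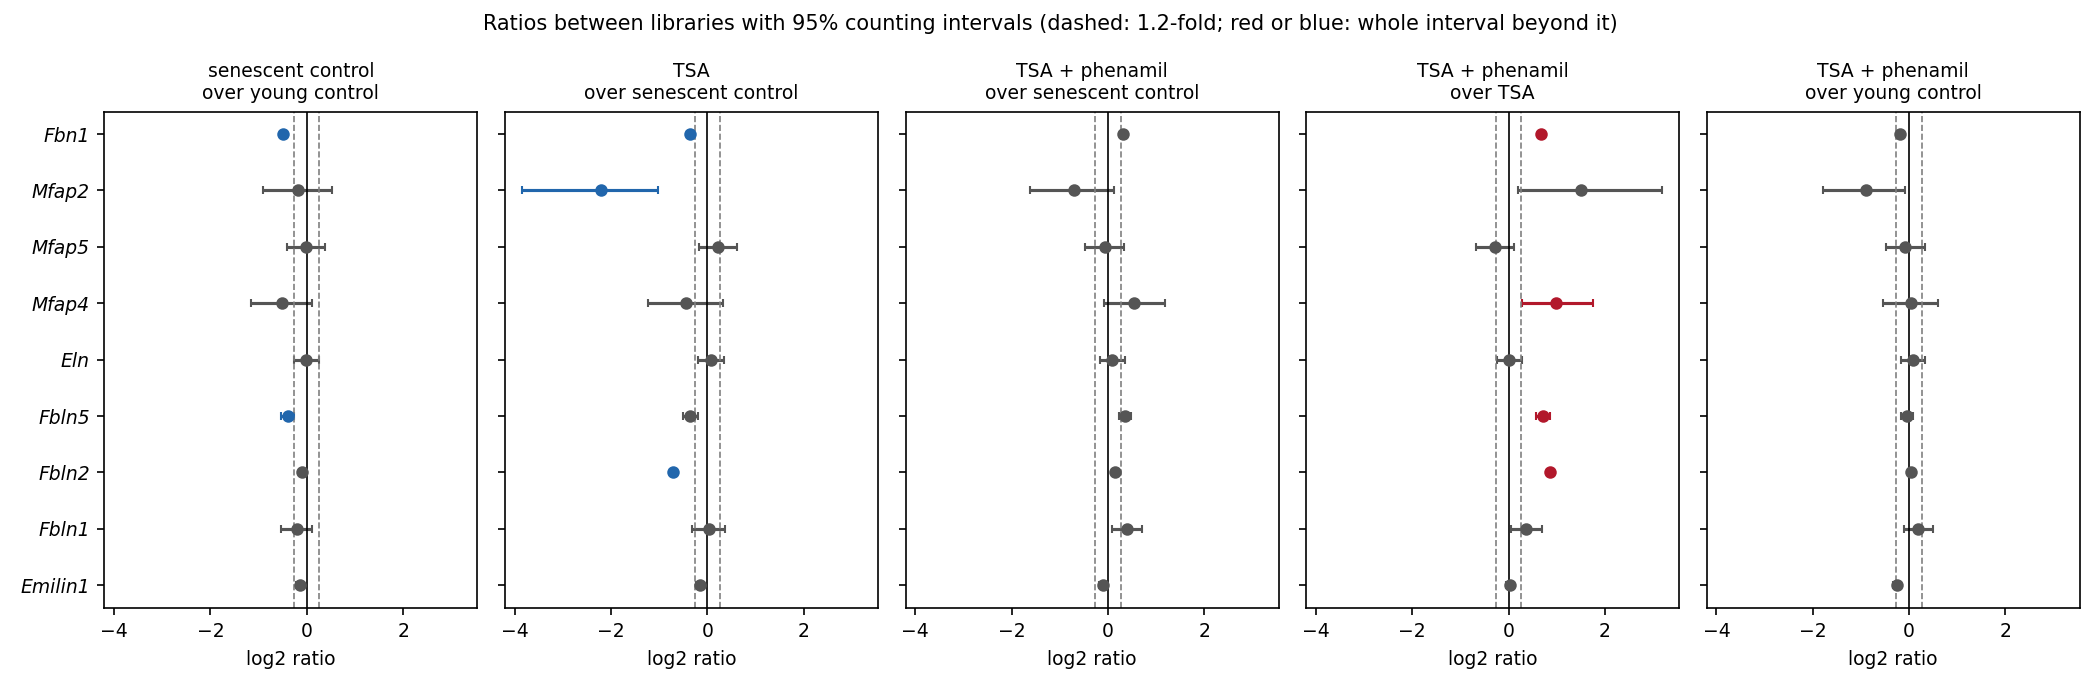
Log2 ratios (horizontal axis) of the 9 genes with enough counts in 5 pairs of libraries, with 95% counting intervals; dashed lines mark 1.2-fold and coloured points have their whole interval beyond it. In TSA + phenamil over TSA, 4 genes lie beyond on the higher side, and in TSA + phenamil over young control none lies beyond on either side.

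Counted over the 9 genes, the senescent control had 0 higher and 2 lower (Fbn1 and Fbln5) against the young control, where 3.64% of all 12228 genes were higher and 3.34% lower. The TSA library had 0 higher and 3 lower (Fbn1, Fbln2 and Mfap2) against the senescent control, with 2.83% and 2.75% of all genes. TSA + phenamil against the senescent control gave 0 and 0, with 2.86% and 2.48% of all genes.

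The pair that differs by phenamil, TSA + phenamil against TSA, had 4 members higher (Fbn1, Fbln5, Fbln2 and Mfap4) and 0 lower, with 3.88% of all genes higher and 3.42% lower. Against the young control, TSA had 0 higher and 4 lower (Fbn1, Mfap2, Fbln5 and Fbln2), with 6.62% and 6.22% of all genes. TSA + phenamil had 0 and 0 against the young control, with 3.13% and 2.57% of all genes.

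Abundant genes have narrow intervals, so the share was also taken over the 5270 genes with at least 1000 counts, which include Fbn1, Fbln5, Fbln2 and Emilin1. This share was lower than over all genes except on the higher side of TSA over young control. In TSA + phenamil over TSA, 3 of these 4 were higher and 0 lower, beside 3.51% and 3.26% of those genes. In senescent over young control 0 were higher and 2 lower, beside 2.88% and 1.76%, and in TSA over senescent control 0 and 2, beside 1.90% and 2.05%. TSA over young control gave 0 and 3, beside 7.97% and 6.20%. Both pairs with TSA + phenamil over a control gave 0 and 0, beside 1.90% and 1.71% for the senescent and 2.90% and 1.18% for the young control. In TSA + phenamil over TSA, 18 of the 5270 genes had a larger ratio than Fbln2, 38 a larger one than Fbln5, 44 a larger one than Fbn1 and 2132 a larger one than Emilin1.

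By the looser rule that the interval excludes no change, which more genes meet, 6 members were higher and 0 lower in TSA + phenamil over TSA, beside 16.4% and 17.4% of all genes. TSA + phenamil over senescent control had 4 higher (Fbn1, Fbln5, Fbln2 and Fbln1) and 1 lower (Emilin1), beside 15.9% and 15.8%. TSA over senescent control had 0 and 5, beside 16.0% and 14.5%, and senescent over young control 0 and 4, beside 18.4% and 16.5%. Over the young control, TSA had 0 and 6, beside 21.5% and 19.8%, and TSA + phenamil 0 and 3, beside 16.5% and 15.3%. The 3 lower in that last pair were Fbn1, Mfap2 and Emilin1.

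The median log2 ratio of the 9 genes was -0.19 for senescent over young control, beside 0.01 over all genes. It was -0.35 for TSA over senescent control, 0.14 for TSA + phenamil over senescent control and 0.68 for TSA + phenamil over TSA, with medians over all genes between -0.0015 and 0.00082 in these pairs. Against the young control it was -0.75 with TSA and -0.04 with TSA + phenamil, beside 0.01 over all genes in both. TSA was the lowest library for 6 of the 9 genes and the young control for none, while the young control and the TSA + phenamil library were each highest for 4. The same ranking was not made over all genes, so these numbers describe the members and cannot set them apart from other genes. Mfap5 was highest with TSA and lowest with TSA + phenamil, and Eln and Fbln1 were lowest in the senescent control. Neighbouring levels overlapped for each of them. Fbln1 in the TSA + phenamil library was still at 1.32 (1.06 to 1.64) of the senescent control.

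**Figure D3:**
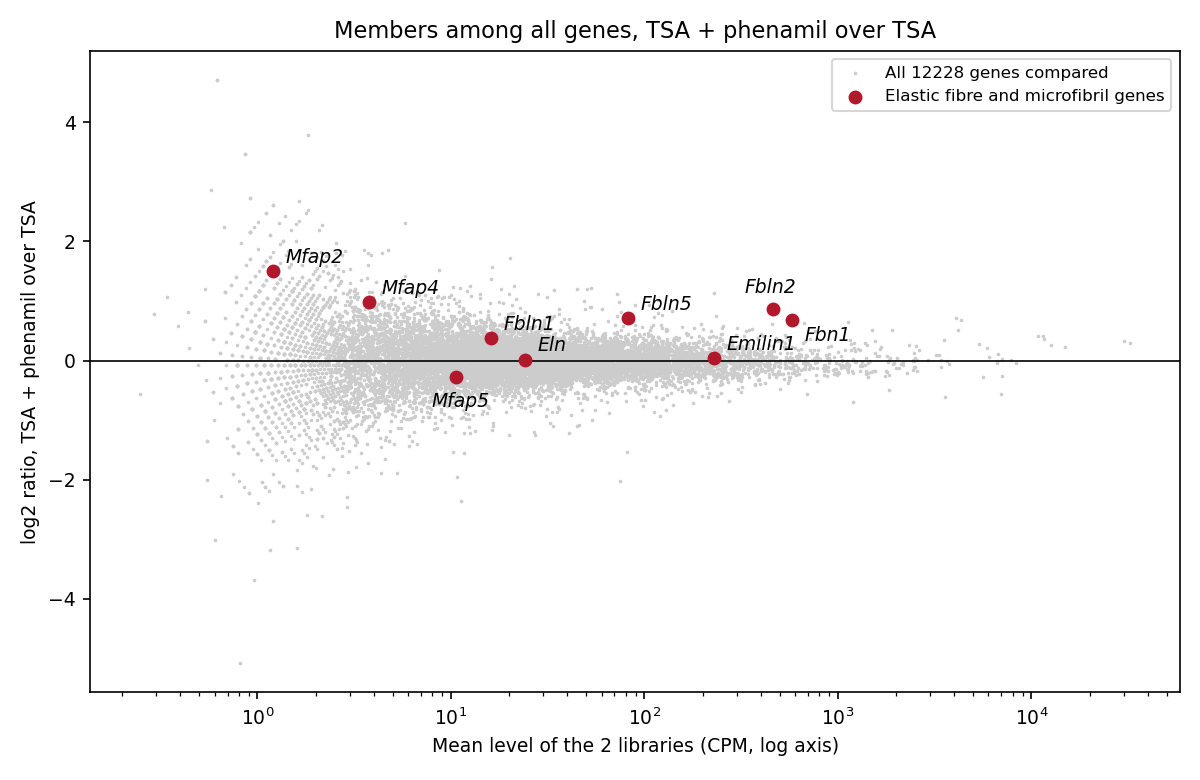
Log2 ratio of TSA + phenamil over TSA (vertical axis) against the mean level of both libraries (CPM, log axis) for 12228 genes in grey and the 9 elastic fibre and microfibril genes in red. Fbn1, Fbln5 and Fbln2 lie above most genes of like level, at 0.68, 0.71 and 0.86, while Emilin1 lies at 0.04.

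Proportions of counts within a library do not depend on how libraries are scaled. Fbln5 counts per Fbn1 count were 0.143 (0.134 to 0.153) with TSA + phenamil, 0.141 (0.129 to 0.153) with TSA, 0.139 (0.129 to 0.149) in the senescent control and 0.130 (0.122 to 0.138) in the young control. The quotients thus lay between 0.130 and 0.143 while both genes varied in level. Overlap of these separate intervals does not show that the proportions were equal, and the young control had the lowest quotient. Fbn1 counts per Emilin1 count were 3.08 (2.94 to 3.22) with TSA + phenamil, 1.97 (1.88 to 2.08) with TSA, 2.303 (2.20 to 2.41) in the senescent control and 2.95 (2.83 to 3.08) in the young control. Both controls lay apart in this proportion, while the TSA + phenamil library and the young control overlapped.

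Fbn1 counts per Fbln2 count were 1.19 (1.15 to 1.23) with TSA + phenamil, 1.35 (1.29 to 1.41) with TSA, 1.06 (1.02 to 1.0998) in the senescent control and 1.41 (1.36 to 1.45) in the young control. Fbln2 did not follow Fbn1 in proportion: the senescent control was lowest, and with TSA the quotient was close to that of young cells although both genes were at their lowest levels. Eln counts per Fbn1 count were 0.0339 (0.0298 to 0.0384) with TSA + phenamil, 0.0537 (0.0469 to 0.0612) with TSA, 0.0394 (0.0346 to 0.0447) in the senescent control and 0.0280 (0.0246 to 0.0318) in the young control. The TSA library held the most elastin message per fibrillin-1 message, with an interval apart from the others. The young control held the least, but its interval overlaps that of TSA + phenamil. Eln itself lay between 22.7 and 24.2 CPM, so this quotient mainly repeats the result of Fbn1.

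**Figure D4:**
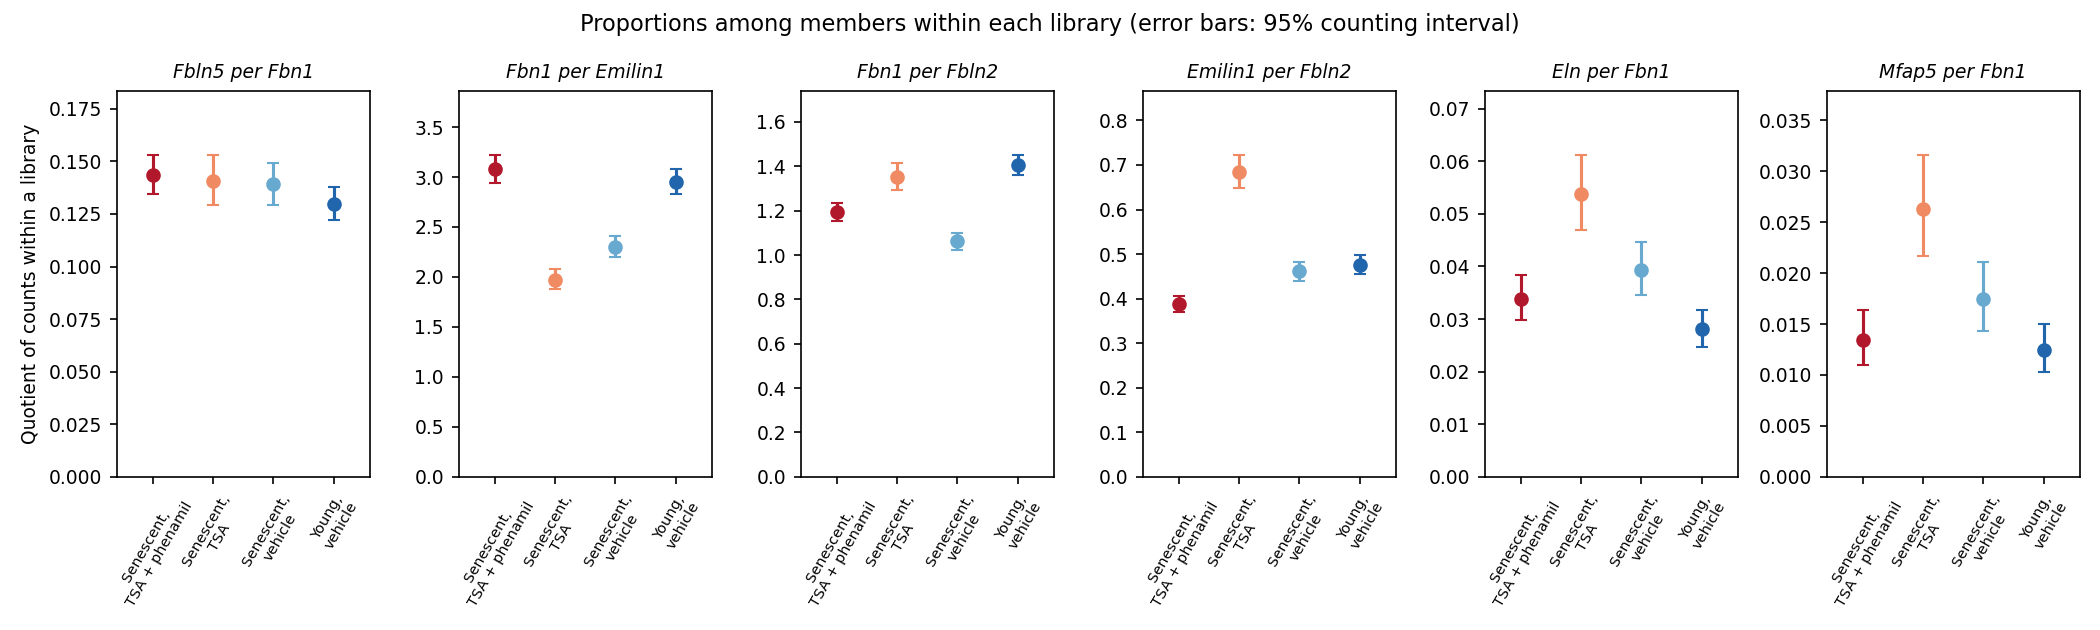
Quotients of the counts of 2 genes within each library (vertical axes, from 0), 1 point per library with its 95% counting interval. Fbln5 per Fbn1 overlaps in all 4 libraries, whereas Eln per Fbn1 and Emilin1 per Fbln2 are highest in the TSA library, at 0.0537 and 0.685.

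Genes whose levels followed most closely were sought among 5270 genes with at least 1000 counts, by the root mean square difference of log2 CPM after centring each gene on its mean over the 4 libraries. For Fbn1 the nearest were the collagen gene Col27a1 at 0.03, the laminin chain gene Lama4 at 0.03 and the mitochondrially encoded ND6 at 0.04. Col27a1 stood at 90.3 CPM with TSA + phenamil, 53.7 CPM with TSA, 71.8 CPM in the senescent control and 103 CPM in the young control. For Fbln2 the nearest were Plekha7 at 0.05, Cimap1c at 0.06 and the PDGF receptor gene Pdgfrb at 0.06. With 4 libraries such likeness is a description of these libraries only.

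Around the fibre itself, 51 genes in 7 lists were examined, of which 35 had enough counts. In TSA + phenamil against TSA, 5 were higher and 5 lower, and in the senescent against the young control 6 were higher and 3 lower, beside the shares of all genes given above. TSA against the senescent control gave 0 higher and 3 lower, and TSA + phenamil against the senescent control 3 and 4. Against the young control, TSA had 7 higher and 7 lower and TSA + phenamil 1 and 0. The lysyl oxidases, which crosslink elastin and collagen, did not share one pattern: in TSA + phenamil over TSA, 2 of 5 were lower and 0 higher. The median log2 ratio of the 5 in that pair was -0.49, close to that of Lox. The oxidase not named below was about as low as Lox or lower, without a call. Lox was at 1531 CPM with TSA + phenamil, 2157 CPM with TSA, 2033 CPM in the senescent control and 1634 CPM in the young control. Its ratio was 0.710 (0.695 to 0.724) for TSA + phenamil over TSA and 1.24 (1.22 to 1.27) for senescent over young control, the opposite direction to Fbn1 in both pairs. Loxl3 was likewise at 0.689 (0.623 to 0.761) and 1.59 (1.44 to 1.76) in these pairs, while Loxl1, an oxidase that partners fibulin-5, was at 0.978 (0.919 to 1.04) and 1.12 (1.06 to 1.19). Loxl2 was at 1.19 (1.15 to 1.22) in TSA + phenamil over TSA, and was lower with TSA than in the young control at 0.799 (0.777 to 0.822).

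Among fibulin relatives, Hmcn1, which encodes the very large fibulin hemicentin-1, was at 73.9 CPM with TSA + phenamil, 31.7 CPM with TSA, 49.6 CPM in the senescent control and 91.4 CPM in the young control. It varied in the same order of libraries as Fbn1 and more widely, with 2.33 (2.04 to 2.67) for TSA + phenamil over TSA and 0.543 (0.488 to 0.602) for senescent over young control. Efemp2, encoding fibulin-4, which like fibulin-5 is needed for elastic fibres in mice, was between 146 and 148 CPM in all 4 libraries. Fbln7 had 10 to 15 counts per library and no call, and the other two relatives were too rare to compare. Of the latent TGF-beta binding proteins, Ltbp1 was lower in TSA + phenamil than in TSA at 0.635 (0.547 to 0.736) and higher in the senescent than in the young control at 1.42 (1.22 to 1.65). Ltbp2, Ltbp3 and Ltbp4 had no call in any of the 6 pairs. Emilin2 was the single relative of Emilin1 with enough counts, at 5.81 CPM in the senescent control against 2.16 CPM in the young control, with a ratio of 2.66 (1.66 to 4.50).

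In the fibrillin-binding ADAMTS family, 5 of 9 genes could be compared. Adamtsl5 was lower in TSA + phenamil than in TSA, at 0.621 (0.512 to 0.751), and Adamts10, which promotes fibrillin-1 assembly, was lower in the senescent than in the young control, at 0.724 (0.637 to 0.821). Of the elastin-degrading enzymes, 6 of 9 had enough counts, and 1 call was made among them in all 6 pairs, for the cathepsin gene Ctsl, higher with TSA than in the young control at 1.31 (1.24 to 1.39). Growth factors and integrins that engage microfibrils had 4 higher and 1 lower of 11 in TSA + phenamil against TSA. Itga8, an integrin subunit, was at 2.33 (1.75 to 3.17), and the ligand genes Tgfb2 and Bmp2 at 1.42 (1.39 to 1.45) and 1.61 (1.37 to 1.91). The remaining calls in that pair, named after their values were seen, were Tgfb3 at 1.36 (1.30 to 1.42) and the integrin subunit gene Itgb5 at 0.717 (0.689 to 0.746). Bmp4, another ligand, was higher in TSA + phenamil than in the young control, at 1.71 (1.62 to 1.80).

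**Figure D5:**
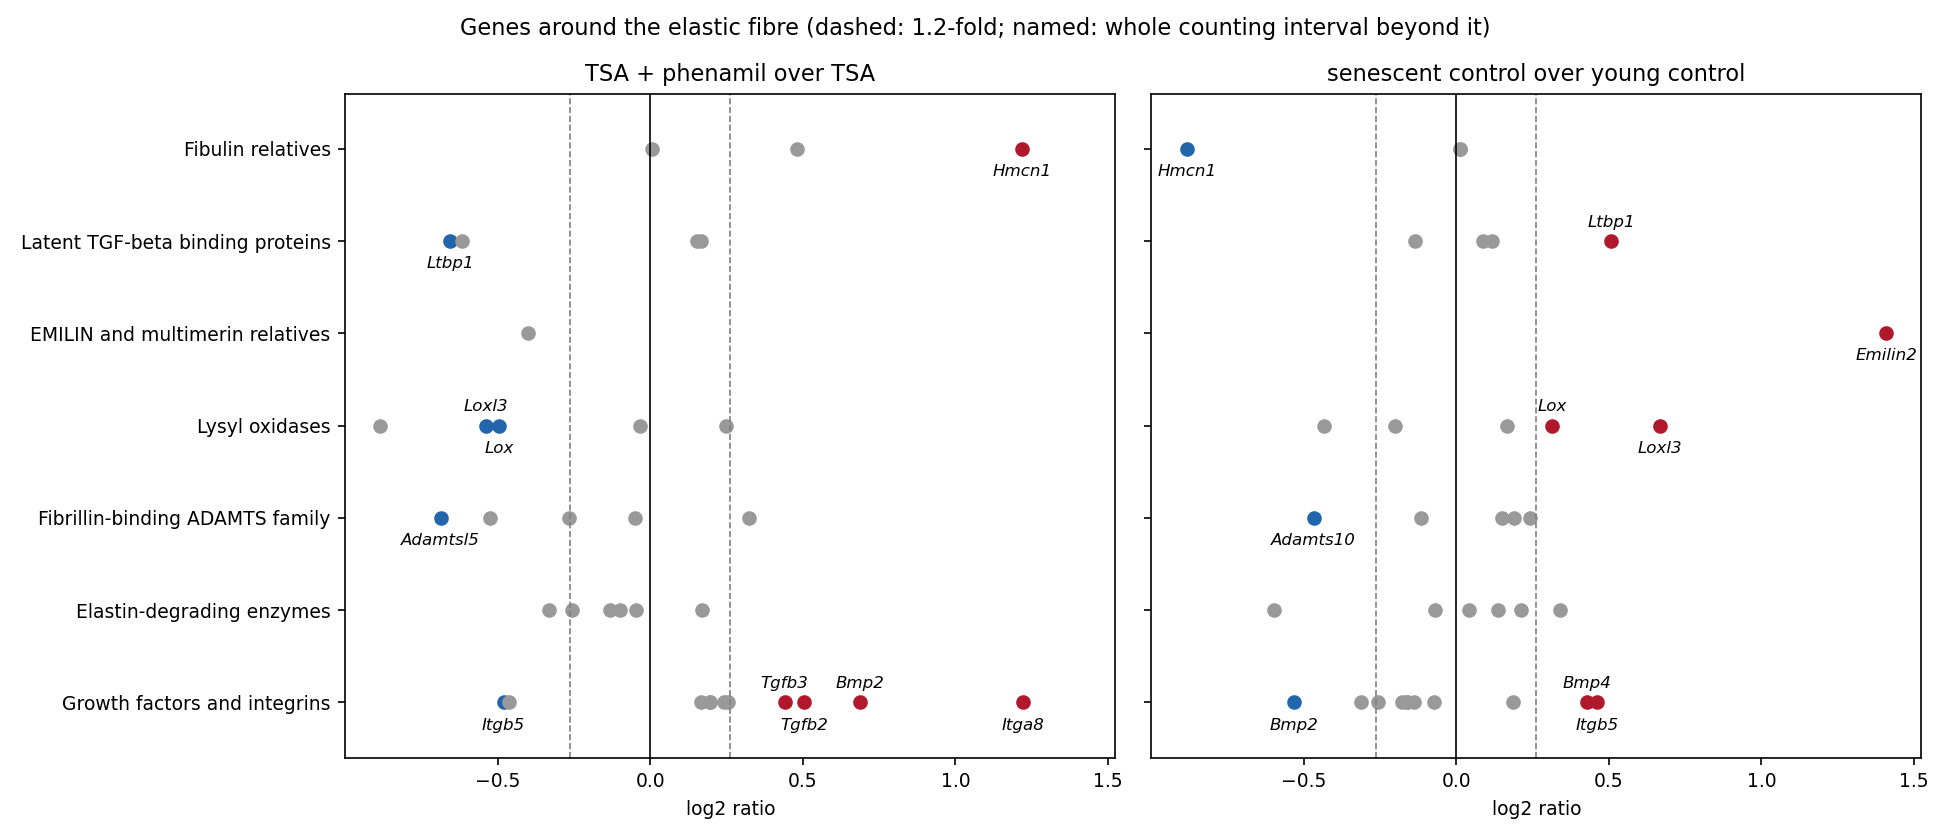
Log2 ratios (horizontal axis) of the 35 genes of 7 lists that had enough counts, for TSA + phenamil over TSA and for senescent over young control; dashed lines mark 1.2-fold, and red or blue named genes have their whole counting interval beyond it on the higher or lower side. Hmcn1 is on the higher side in the first pair and the lower side in the second, and Lox and Loxl3 are the other way round.

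Contractile genes of smooth muscle followed part of this pattern. All 4 of their markers were detected in every library, none at 0, and they summed to 8193 CPM with TSA + phenamil, 6127 CPM with TSA, 7885 CPM in the senescent control and 8386 CPM in the young control. Myh11 was at 47.6 CPM with TSA + phenamil, 20.9 CPM with TSA, 30.5 CPM in the senescent control and 52.6 CPM in the young control, while Tagln was at 2927, 2921, 3215 and 2981 CPM in the same order. Acta2 in TSA + phenamil over TSA was 1.65 (1.62 to 1.67). Stromal cells in culture also express these genes, and their part in the result was not tested. Of the 4 epithelial markers, summed at 15.2 CPM with TSA + phenamil, 39.0 CPM with TSA, 28.9 CPM in the senescent control and 13.8 CPM in the young control, Krt7 and Krt8 made up nearly all. Krt18 was at 0 except for 5 counts in the senescent control, and Epcam at 0 except for 1 count with TSA + phenamil. Their part in the result was not tested either. Of the 6 stromal markers, 2 were higher and 0 lower in TSA + phenamil over TSA, beside 3.88% and 3.42% of all genes. Pdgfrb was at 1.82 (1.56 to 2.13) and Thy1 at 1.03 (0.994 to 1.06). Col1a1 was at 33592 CPM with TSA + phenamil and 26746 CPM with TSA. In the same order Cd44 was at 152 and 161 CPM, Nt5e at 12.0 and 16.5 CPM and Eng at 2.19 and 2.02 CPM.

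The size of the variation between cultures was not measured. If cultures varied with an assumed coefficient of variation of 0.2, the number of members beyond 1.2-fold in TSA + phenamil over TSA would be 0 in place of 4, although the Fbln2 interval of 1.04 to 3.16 would still exclude no change.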

How the data were processed

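Per the labels' protocols, RNA was isolated with TRIzol and sequenced from QuantSeq 3' mRNA-Seq FWD libraries as 100 bp single ends on a NextSeq 500. The submitters' processing notes list STAR (2.7.10b), HTSeq (2.0.2) and mRatBN7.2; the sources used here do not state their roles, the annotation, duplicate handling or use of strand. The deposited counts are raw whole numbers per gene, per the file headers. The deposited log2 values are normalized data, per the file headers; each equalled log2(CPM + 1) on 1 scale per library within 0.000532.

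Counts were scaled by TMM with edgeR 4.0.16 in R 4.3.3 over the whole table. No test was possible with 1 library per condition. Ratios used a prior count of 0.5 and exact conditional binomial (Clopper-Pearson) 95% intervals; levels had exact Poisson and shares exact binomial ones (scipy 1.17.1, numpy 2.4.6, pandas 2.3.3, Python 3.11.15, matplotlib 3.10.9). Without molecular identifiers, reads may repeat a molecule, and counting error alone is covered by intervals and floors. Genes needed 40 counts over 4 libraries. Intervals and calls were tried on counts simulated with counting error alone, as the intervals assume. That checks the calculation and says nothing about variation between cultures. Overlapping genes were looked up in RefSeq's GRCr8 annotation, where all 10 members were found. The members, lists and rules were chosen with earlier results of these data known. All members are named, and up to 4 genes per list, first those called, by the bound nearest to no change, then the most abundant. The alternatives were size factors from DESeq2 1.42.0, scaling by total counts, TMM leaving out mitochondrial and ribosomal protein genes, a prior count of 2, the deposited log2 values, other filters and size rules, and an assumed coefficient of variation of 0.2.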

Additional observations from a re-analysis of the deposited data

How the results depend on the processing

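No paired analysis was possible because each condition has 1 library. The pairs are given in the order senescent over young control, TSA over senescent control, TSA + phenamil over senescent control, TSA + phenamil over TSA, TSA over young control and TSA + phenamil over young control. Genes beyond 1.2-fold numbered 854, 682, 653, 893, 1570 and 697. They numbered 137, 124, 116, 159, 272 and 115 when cultures were assumed to vary by a coefficient of variation of 0.2, 165, 131, 133, 226, 394 and 129 beyond 1.5-fold, 33, 20, 20, 50, 85 and 28 beyond 2-fold and 552, 423, 411, 646, 1193 and 443 with a filter of 200 counts, which leaves fewer genes to test. Members beyond 1.2-fold numbered 2, 3, 0, 4, 4 and 0, against 0, 1, 0, 0, 1 and 0 with the assumed variation, 0, 2, 0, 2, 4 and 0 beyond 1.5-fold and 0, 1, 0, 0, 1 and 0 beyond 2-fold. With the assumed variation, intervals of members with enough counts excluded no change for Mfap2 (TSA over either control), Fbln2 (TSA + phenamil over TSA, and TSA over young control) and Fbn1 (TSA over young control). With a filter of 200 counts, which removes Mfap2 and Mfap4, the median log2 ratio of members was -0.15 for TSA over senescent control, 0.37 for TSA + phenamil over TSA and -0.29 for TSA over young control; with no filter, the last was -0.52. Scaling by DESeq2 size factors, by total counts or without mitochondrial and ribosomal protein genes moved log2 ratios by at most 0.0119, 0.0587 and 0.0364, and moved no count of calls by over 1.5 times; members called were 3 in place of 4 in TSA + phenamil over TSA with total counts, and 5 in place of 4 in TSA over young control with each, Mfap4 being the difference. Total counts turned the sign of 3 log2 ratios whose intervals include no change: Eln in TSA + phenamil over TSA (-0.02 in place of 0.02), and Mfap4 (-0.03 in place of 0.03) and Fbln2 (-0.01 in place of 0.05) in TSA + phenamil over young control. Leaving out mitochondrial and ribosomal protein genes turned that of Mfap4 in the last pair. A prior count of 2 and the deposited log2 values, which add 1 to CPM, turned no sign but moved log2 ratios by up to 1.79 and 3.39, both for Fbn2 in senescent over young control. The deposited values moved Mfap2 by over 1.5 times in each pair with TSA alone, to -1.32 over senescent control, -1.46 over young control and 0.81 for TSA + phenamil over TSA, in place of -2.22, -2.41 and 1.504. Mfap2, Mfap4 and Fbn2 have 25 or fewer counts in at least 1 library, which limits what their ratios can show.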
